A study of Mus musculus with 9 samples.

Results

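The peptidylarginine deiminase genes Padi1, Padi2, Padi3 and Padi4 were taken by name from the 32137 genes listed for each of 9 RNA sequencing libraries of mouse bile duct organoids. These 4 genes were chosen by measured values of the same libraries: the lower Padi1 counts under Rspo1 and the lower Padi2 counts at later passages. Their values in comparisons with untreated cells and between passages are therefore descriptions with no test. Counts in all libraries let 3 of the 4 genes enter the tests, among 17011 genes tested.

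Peptidylarginine deiminases are calcium-dependent enzymes that convert arginine within proteins to citrulline, which removes a positive charge from the protein. Padi1 and Padi3 are best known from the epidermis and hair follicle, where keratins, filaggrin and trichohyalin are citrullinated. Padi2 is the most broadly expressed of the family, with brain and myelin as its classical sites, and Padi4 is known from granulocytes, where it citrullinates histones and takes part in the release of chromatin as extracellular traps. None of the enzymes is a classical marker of the bile duct.

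The libraries came from differentiated organoids of a single male mouse of mixed genetic background with the genotype Axin2CreERT2+/-; R26-LSL-tdTom+/-, per the labels. In this genotype, cells that express the Wnt target gene Axin2 while 4-hydroxytamoxifen is present switch on the fluorescent protein tdTomato. All groups, untreated cells included, were given 3 uM dexamethasone, a synthetic glucocorticoid, and 500 nM 4-hydroxytamoxifen in the last 24 h of an 11 day differentiation. An expansion of 2 to 4 days is also listed for all groups. The untreated group held tdTomato-negative cells of organoids that were not given R-spondin 1 (Rspo1), a secreted ligand that potentiates Wnt signals. The Rspo1-negative and Rspo1-positive groups held the tdTomato-negative and tdTomato-positive cells of organoids given Rspo1 at 100 ng/ml. No tdTomato-positive cells of untreated organoids were analysed here, so a difference between Rspo1-positive and untreated cells holds both the treatment and the sort. Each group had 3 libraries, 1 each at passages 5, 6 and 10. They are repeated cultures of 1 animal, and p-values measure the spread between these cultures only.

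Total counts per library lay between 23423979 and 37351448, and 22021 to 24578 genes had at least 1 count. Axin2, the gene that drives the reporter, had 1.32, 1.74 and 5.96 CPM (counts relative to a TMM-scaled library total) in untreated libraries at passages 5, 6 and 10. It had 44.4, 97.4 and 124 CPM in Rspo1-negative and 75.7, 88.7 and 155 CPM in Rspo1-positive libraries. Axin2 thus separated treated from untreated libraries, but the ranges of the tdTomato-negative and tdTomato-positive libraries overlapped, and the negative library was the higher one at passage 6. All 12 duct markers examined were listed, and their summed level was 14661 to 18003 CPM in untreated, 16361 to 19771 CPM in Rspo1-negative and 13316 to 13511 CPM in Rspo1-positive libraries.

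The family lies in one cluster on chromosome 4 (GRCm38). Padi4 (ENSMUSG00000025330) runs from 140745865 to 140774236, Padi3 (ENSMUSG00000025328) from 140785365 to 140810648 and Padi1 (ENSMUSG00000025329) from 140812983 to 140845778, all on the minus strand. Padi2 (ENSMUSG00000028927) runs from 140906344 to 140952586 on the plus strand. The fifth family member, Padi6, an oocyte gene, lies next to Padi4 at 140727355 to 140742643 and had 0 or 1 count in every library. The 250 bases before the RefSeq start (GRCm38.p6) are shown for the 3 tested genes, because Padi1 and Padi2 moved together in these libraries and Padi4 did not, while the letters before their starts differ. They are chr4:140845779-140846028 (minus strand) for Padi1, chr4:140906110-140906359 (plus strand) for Padi2 and chr4:140774204-140774453 (minus strand) for Padi4, and capitals mark matches to a searched motif on either strand.
Padi1: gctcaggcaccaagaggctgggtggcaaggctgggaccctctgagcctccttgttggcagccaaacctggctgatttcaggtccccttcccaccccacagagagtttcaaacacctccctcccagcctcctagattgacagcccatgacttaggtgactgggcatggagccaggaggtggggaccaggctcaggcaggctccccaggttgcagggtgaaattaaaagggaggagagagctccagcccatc
Padi2: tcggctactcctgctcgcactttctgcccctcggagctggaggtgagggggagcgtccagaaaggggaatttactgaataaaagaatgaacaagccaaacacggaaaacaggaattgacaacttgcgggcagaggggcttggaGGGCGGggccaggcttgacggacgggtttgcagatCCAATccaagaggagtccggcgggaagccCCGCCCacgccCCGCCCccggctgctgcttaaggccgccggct
Padi4: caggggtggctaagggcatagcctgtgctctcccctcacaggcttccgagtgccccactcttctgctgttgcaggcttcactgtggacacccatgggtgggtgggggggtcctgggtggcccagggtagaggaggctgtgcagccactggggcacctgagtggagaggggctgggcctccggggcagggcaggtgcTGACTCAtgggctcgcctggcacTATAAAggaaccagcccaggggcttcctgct

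The Padi1 window held 0 CpG dinucleotides, although 60.0% of its bases were G or C. The Padi2 window held 17 CpG, above the median of 6 over 32851 RefSeq windows of the same length, and the Padi4 window held 3. Padi2 had 3 matches to the GC box GGGCGG, at 107, 43 and 32 bases before the start, and 1 to the CCAAT box, at 72 bases. Padi4 had 1 match to the AP-1 motif TGACTCA at 54 bases and 1 to TATAAA at 31 bases before its start. Among all windows, 32.7% held GGGCGG, 33.8% held CCAAT, 4.46% held TGACTCA and 12.4% held TATAAA. None of the 3 windows held the TCF/LEF motifs CTTTGA (in 13.8% of windows) or CTTTGT (in 16.5%), or a palindromic estrogen response element (in 0.0639%). Padi1 matched none of the 7 patterns. No matches overlapped. These matches describe letters only.

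Levels between genes are compared as the deposited FPKM, a count per length and library size. By this measure Padi1 was lower in every library of Rspo1-treated organoids than in any untreated one, the difference for which it was chosen. Untreated cells had 24.8, 13.3 and 8.39 FPKM of Padi1 at passages 5, 6 and 10. Rspo1-negative cells had 8.37, 4.90 and 2.62 FPKM at the same passages. Rspo1-positive cells had 5.12, 2.28 and 0.875 FPKM. The lowest untreated value, at passage 10, was almost the same as the highest Rspo1-negative value, at passage 5. In raw counts, not scaled for library size, these libraries had the opposite order, at 1113 and 1143. How many of all genes separated the groups in this way was not counted. The Rspo1-negative and Rspo1-positive groups overlapped. Group means were 15.5 ± 8.43, 5.30 ± 2.89 and 2.76 ± 2.16 FPKM (SD, n = 3 each) in untreated, Rspo1-negative and Rspo1-positive cells.

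In the edgeR fit over all genes, the Padi1 log2 fold change against untreated cells was -2.49 (SE 0.62) in Rspo1-positive cells, the 35th lowest of 17011 genes. It was -1.59 (SE 0.60) in Rspo1-negative cells, the 365th lowest. These comparisons called 5.21% and 21.9% of all tested genes at an adjusted p under 0.05, and the choice of Padi1 rests on them. Both comparisons share the untreated libraries. Within passages 5, 6 and 10 the log2 differences in CPM between Rspo1-negative and untreated libraries were -1.63, -1.46 and -1.69. Those between Rspo1-positive and untreated libraries were -2.28, -2.56 and -3.22. The first set stayed within a narrow range while the level itself was lower at each later passage. In the authors' deposited table the log2 fold changes were -2.67 (SE 0.20) and -1.58 (SE 0.18). Leaving out 1 library moved the Rspo1-positive value between -3.31 (without the Rspo1-positive library of passage 5) and -1.98 (without the untreated library of passage 5), and the Rspo1-negative value between -2.06 (without the Rspo1-negative library of passage 5) and -1.07 (without the untreated library of passage 5). In RNA from many sorted cells, fewer cells that express a gene and less RNA per cell cannot be told apart.

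**Figure D1:**
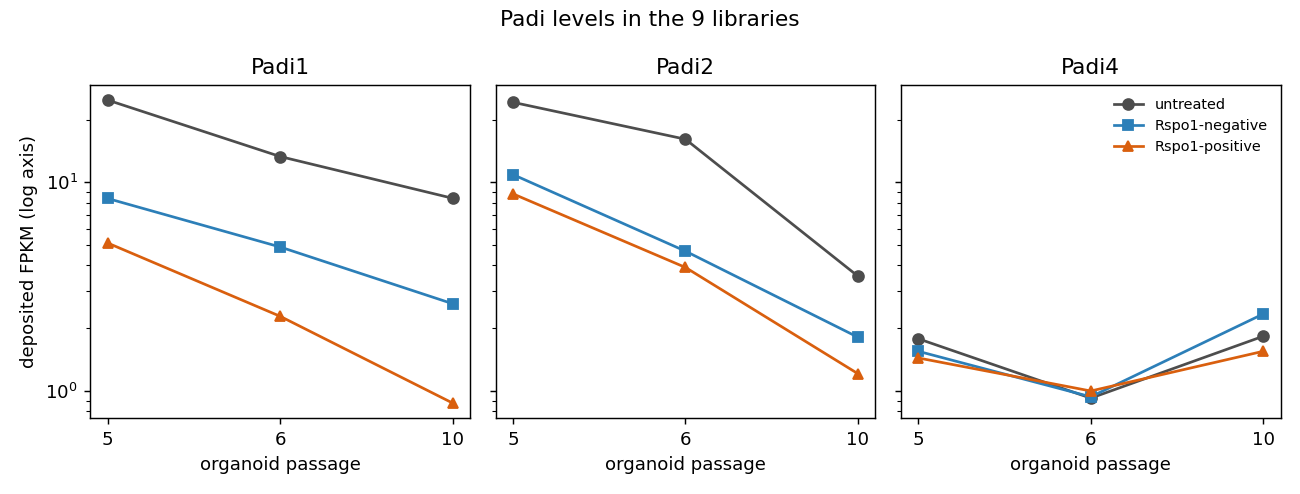
Deposited FPKM (log axis) of Padi1, Padi2 and Padi4 against organoid passage (5, 6 and 10, evenly spaced), 1 point per library, with lines joining the libraries of a group. Padi1 and Padi2 slope down in all 3 groups with the untreated line on top, whereas the Padi4 lines lie close together between 0.924 and 2.34 FPKM.

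Padi2 had nearly the level of Padi1 in untreated cells at passage 5 and was lowest at the last passage. Untreated cells had 24.2, 16.1 and 3.55 FPKM at passages 5, 6 and 10. Rspo1-negative cells had 10.9, 4.68 and 1.81 FPKM, and Rspo1-positive cells had 8.81, 3.91 and 1.21 FPKM. At each passage the untreated library was the highest and the Rspo1-positive library the lowest of the 3. Across passages the groups overlapped, and the untreated library of passage 10 lay below all Rspo1 libraries of passages 5 and 6. Group means were 14.6 ± 10.4, 5.78 ± 4.62 and 4.64 ± 3.85 FPKM (SD, n = 3 each) in untreated, Rspo1-negative and Rspo1-positive cells.

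With passage and group in 1 edgeR fit, Padi2 had a log2 fold change of -2.72 (SE 0.16) at passage 10 against passage 5, the 23rd lowest of 17011 genes. The value for Padi1 was -1.86 (SE 0.18), the 93rd lowest. That comparison called 9.07% of tested genes, and the choice of Padi2 rests on it. Padi2 was 6.57-fold and Padi1 3.64-fold lower at passage 10. Within the untreated, Rspo1-negative and Rspo1-positive groups, the log2 difference between passages 10 and 5 was -2.76, -2.52 and -2.83 for Padi2. For Padi1 it was -1.56, -1.61 and -2.49. Padi2 thus differed by a like amount in the 3 groups, and the Padi1 difference was farther from 0 in Rspo1-positive cells. Whether the passage differences of Padi1 differed between groups was not tested, since each group had 1 library per passage.

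Between passages 6 and 5, at a background of 2.49% of genes called, the fitted log2 fold changes were -0.94 (SE 0.17) for Padi1 and -0.96 (SE 0.15) for Padi2. Passage order and culture day cannot be told apart, because each passage was grown once. Against untreated cells the fitted log2 fold changes of Padi2 were -1.66 (SE 0.81) in Rspo1-positive and -1.38 (SE 0.80) in Rspo1-negative cells. The within-passage differences for Rspo1-positive cells were -1.46, -2.06 and -1.53 at passages 5, 6 and 10. For Rspo1-negative cells they were -1.22, -1.80 and -0.99. Leaving out 1 library moved the fitted Rspo1-positive value between -2.53 (without the Rspo1-positive library of passage 5) and -1.09 (without the untreated library of passage 5), and the Rspo1-negative value between -2.19 (without the Rspo1-negative library of passage 5) and -0.81 (without the untreated library of passage 5). The large errors of the fit without passage go with the spread of Padi2 across passages. In the authors' deposited table the Padi2 values were -1.68 (SE 0.17) and -1.33 (SE 0.20). Of 6 oligodendrocyte markers, for the cells in which Padi2 is classically known, 4 were listed, with summed levels of 152 to 180 CPM in untreated, 120 to 161 CPM in Rspo1-negative and 107 to 134 CPM in Rspo1-positive libraries. Nearly all of it was Mbp, with 3121 to 6183 counts, and the defining gene Mog had 0 to 3 counts.

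**Figure D2:**
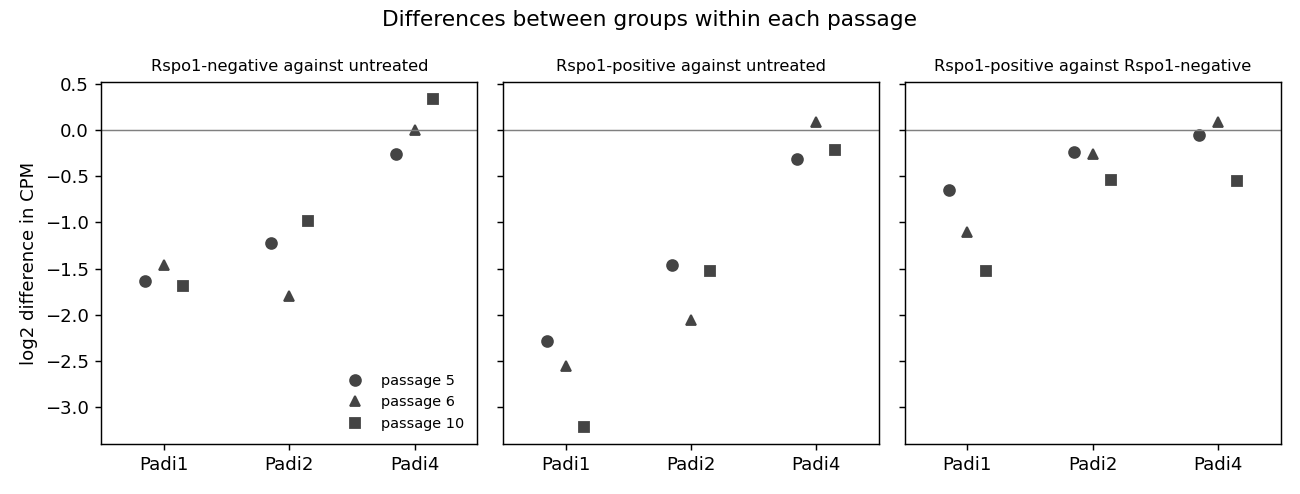
Log2 differences in CPM between groups within passage 5 (circles), 6 (triangles) and 10 (squares) for Padi1, Padi2 and Padi4, with 1 panel for each pair of groups. All 9 Padi1 points and all 9 Padi2 points lie below 0, and the Padi4 points lie on both sides, from -0.55 to 0.34.

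Padi4, the granulocyte enzyme of the family, was low, with overlapping groups. Untreated cells had 1.78, 0.924 and 1.83 FPKM at passages 5, 6 and 10. Rspo1-negative cells had 1.55, 0.938 and 2.34 FPKM, and Rspo1-positive cells had 1.44, 1.0 and 1.55 FPKM. Passage 6 held the lowest value in each group. Its log2 fold change at passage 6 against passage 5 was -0.71 (SE 0.20), and at passage 10 against passage 5 it was 0.28 (SE 0.19). Against untreated cells the values were -0.18 (SE 0.37) in Rspo1-positive and 0.06 (SE 0.37) in Rspo1-negative cells. Counts behind Padi4 were 69 to 195 per library, against 121 to 3066 for Padi1 and 205 to 3807 for Padi2.

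Of 10 granulocyte markers, 7 were listed, and their summed level was 2868 to 5684 CPM in untreated, 4515 to 6453 CPM in Rspo1-negative and 3401 to 3943 CPM in Rspo1-positive libraries. Nearly all of that sum was Ltf (lactoferrin), with 93175 to 169941 counts, a secreted protein also made by glandular epithelia. The defining genes were at or near 0: Mpo had 0 to 1, Camp 0 to 2, S100a8 0 to 3 and Ptprc (CD45) 0 to 5 counts per library. Padi3 had 2, 2 and 1 counts in untreated libraries at passages 5, 6 and 10. It had 3, 0 and 0 in Rspo1-negative and 3, 0 and 0 in Rspo1-positive libraries. These are at or under a floor of 3 counts, so Padi3 was not detectable at this depth and no fold is given.

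The make-up of the family signal shifted with these levels. Padi1, Padi2 and Padi4 together gave 50.8, 30.3 and 13.8 FPKM in untreated cells at passages 5, 6 and 10. They gave 20.8, 10.5 and 6.77 FPKM in Rspo1-negative and 15.4, 7.19 and 3.64 FPKM in Rspo1-positive cells. Padi4 made up 3.05% to 13.3% of the sum in untreated libraries, 7.44% to 34.6% in Rspo1-negative libraries and 9.34% to 42.8% in Rspo1-positive libraries. Its share was highest at passage 10 in every group, where Padi4 itself was 0.04 to 0.65 log2 units above its passage 5 level. The ratio of Padi1 to Padi2 FPKM was 1.02, 0.823 and 2.36 in untreated cells at passages 5, 6 and 10. It was 0.771, 1.05 and 1.45 in Rspo1-negative and 0.581, 0.582 and 0.726 in Rspo1-positive cells. The 3 Rspo1-positive ratios were the lowest of the 9 and did not overlap with either other group, a description that follows from values used in the choice.

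**Figure D3:**
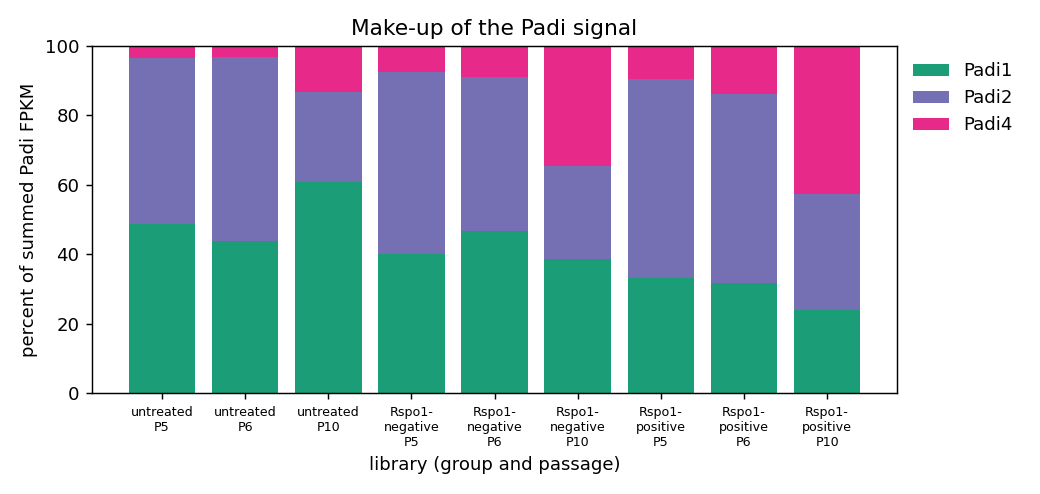
Percent of the summed FPKM of Padi1, Padi2 and Padi4 that each gene gave, 1 bar per library, by group and passage (P). Padi4 reaches 42.8% in the Rspo1-positive library of passage 10 and 3.05% in the untreated library of passage 6.

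Rspo1-positive and Rspo1-negative cells were compared by a test, since the choice of the genes rested on comparisons with untreated cells and between passages. Those comparisons used the same Rspo1 libraries, so p-values of Padi1 and Padi2 in this contrast are not independent of the choice. It sets libraries labelled tdTomato-positive against libraries labelled tdTomato-negative, all from organoids given Rspo1. Axin2 mRNA itself did not separate the 2 gates: the means were 106 ± 42.3 CPM in Rspo1-positive and 88.7 ± 40.6 CPM in Rspo1-negative libraries (SD, n = 3 each; log2 change 0.26, SE 0.50, adjusted p = 0.733 in edgeR). Directions below therefore rest on the sort labels, not on Axin2 mRNA. In edgeR, with p-values adjusted over all genes by Benjamini-Hochberg, 0 of the 3 tested Padi genes passed, against 24.3% of all tested genes. None had an unadjusted p under 0.05, and DESeq2 on the same 9 libraries also called 0. The log2 fold changes were -0.91 (SE 0.60, adjusted p = 0.293) for Padi1, -0.28 (SE 0.79, adjusted p = 0.829) for Padi2 and -0.24 (SE 0.37, adjusted p = 0.675) for Padi4 in edgeR.

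The passage numbers pair the libraries, and with passage as a block Padi1 fell in edgeR by a fitted log2 change of -1.05 (SE 0.18, adjusted p = 0.00137). That blocked fit called 17.4% of all tested genes lower and 21.5% higher. Padi1 was lower in the Rspo1-positive library at 3 of 3 passages, by log2 differences of -0.65, -1.10 and -1.53 at passages 5, 6 and 10. Padi2 was lower at 3 of 3 passages too, by -0.24, -0.26 and -0.54, and did not pass with the block (log2 fold change -0.34, SE 0.16, adjusted p = 0.11 in edgeR). The Padi4 differences were -0.05, 0.09 and -0.55. The authors' deposited table lists log2 fold changes of -1.10 (SE 0.20, adjusted p = 2.3e-07) for Padi1, -0.36 (SE 0.15, adjusted p = 0.0449) for Padi2 and -0.20 (SE 0.26, adjusted p = 0.555) for Padi4. The model behind that table is not given in the sources used here.

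This pair of groups also differed by base composition over all genes. Genes with an exonic GC content of 55.6% or more had a median log2 fold change of -0.29 between Rspo1-positive and Rspo1-negative cells, against 0.03 over all genes tested. The Spearman correlation of log2 fold change with GC content was -0.504 in this pair. It was 0.496 in Rspo1-negative against untreated cells and -0.0134 in Rspo1-positive against untreated cells. Values of Rspo1-negative against untreated cells, those of Padi1 included, thus stand beside a shift by GC content as well. Padi1 has 58.2% GC, above 90.7% of tested genes. With an offset for GC content and length in the blocked edgeR fit, the Padi1 log2 change between Rspo1-positive and Rspo1-negative cells was -0.73 (SE 0.16, adjusted p = 0.0102). Padi4 had 0.18 (SE 0.18, adjusted p = 0.502) in that fit, with its sign changed.

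Reads of Padi1 cannot be fully separated from those of Gm13032 (ENSMUSG00000085918), a processed transcript on the opposite strand at 140810993 to 140817511. The exons share 1200 bases, which are 32.0% of Padi1 and 60.0% of Gm13032. Of the shared bases, 1074 lie in the Padi1 3′ UTR and 126 in its coding sequence. The strand setting of the counting is not given in the sources used here, so reads of the shared bases could come from either gene. The ratio of Gm13032 to Padi1 counts stayed between 0.353 and 0.406 in all 9 libraries while Padi1 counts ranged from 121 to 3066. Gm13032 had log2 fold changes of -2.42 in Rspo1-positive and -1.53 in Rspo1-negative cells against untreated cells, and of -1.78 at passage 10 against passage 5. Padi2 shares 149 exonic bases, 2.97% of its own, with the antisense gene Gm13031 (ENSMUSG00000087698), at 140947666 to 140957902. The shared bases are 16.1% of Gm13031, and reads of them could likewise come from either gene. Gm13031 had 6 to 184 counts per library, with a ratio to Padi2 counts of 0.0283 to 0.0683. Its log2 change at passage 10 against passage 5 was -2.80 (SE 0.35). That value is a description with no test, because Padi2 was chosen on the same comparison.

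Of the tested genes around the cluster, 0 of 10 were called lower in Rspo1-positive against untreated cells or at passage 10 against passage 5. Over all genes 2.13% and 4.50% were called lower there, so a count of 0 is near the background. The 5 nearest tested genes on each side were taken as the surroundings, 8 of them coding for proteins, and the miRNA genes Mir2139 and Gm25951 lying inside Klhdc7a and Rcc2. Against untreated cells, the 10 flanking genes had log2 fold changes from -0.25 to 0.69 in Rspo1-positive cells, with a median of -0.02. Of the 10, 0 passed in edgeR, 2 had an unadjusted p under 0.05, and DESeq2 called Rcc2 and Gm25951, both higher. At passage 10 against passage 5 the 10 genes lay between -0.34 and 0.20, and 0 passed in edgeR or DESeq2, with 1 at an unadjusted p under 0.05.

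In Rspo1-negative against untreated cells 4 flanking genes were higher and 0 lower in edgeR, with a median log2 fold change of 0.41. Over all genes, 1361 of 17011 were called higher there and 21.9% in either direction. None of the 10 was lower at an unadjusted p under 0.05 or by DESeq2. Rcc2, a regulator of chromosome condensation, had 102 to 173 CPM in untreated and 229 to 255 CPM in Rspo1-negative libraries (log2 fold change 0.81, adjusted p = 0.0114 in edgeR, and 0.53 with adjusted p = 0.112 under the GC and length offset). Sdhb, a subunit of succinate dehydrogenase, had 54.7 to 75.5 CPM in untreated and 83.8 to 120 CPM in Rspo1-negative libraries (log2 fold change 0.71, adjusted p = 0.0129 in edgeR, and 0.35 with adjusted p = 0.145 under the offset). In Rspo1-positive against Rspo1-negative cells 5 of the 10 were lower in edgeR, where 9.78% of all genes were called lower, and 4 of the 5 calls, all but Klhdc7a, were lost under the offset. Klhdc7a (log2 fold change -0.40, adjusted p = 0.0445 in edgeR) was lost in 6 of 9 fits that left out a library. It was also lost without a filter on low counts and with the 6 libraries of the comparison alone.

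**Figure D4:**
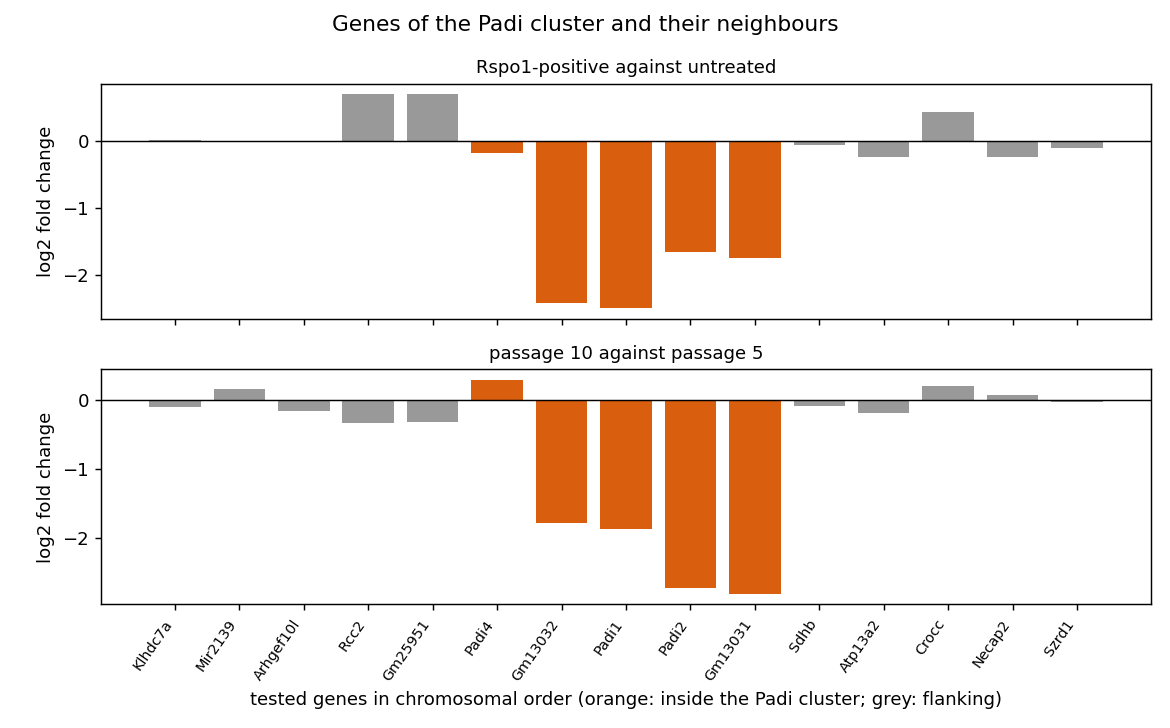
Fitted log2 fold change of each tested gene of the Padi cluster (orange) and of the 5 nearest tested genes on each side (grey), in chromosomal order, for Rspo1-positive against untreated cells (top) and passage 10 against passage 5 (bottom). Gm13032, Padi1, Padi2 and Gm13031 have the bars farthest below 0 in both panels, and Padi4 lies at -0.18 and 0.28.

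Over the 9 libraries, the genes with a mean log2 CPM above 2 whose log2 CPM was most like that of Padi1 were the overlapping Gm13032 (Pearson r = 0.999), Tff1 (0.986), Fhl1 (0.981), Mxd1 (0.976) and Fkbp5 (0.966), of 11661 genes. Tff1 encodes a secreted trefoil peptide of mucous epithelia, Fhl1 a LIM-domain protein, Mxd1 a partner of Max that opposes Myc, and Fkbp5 a co-chaperone of steroid receptors that glucocorticoids induce. Mean Tff1 was 28.3 CPM in untreated, 11.8 CPM in Rspo1-negative and 7.50 CPM in Rspo1-positive cells, and mean Fkbp5 was 561, 347 and 282 CPM. For Padi2 the 5 most alike were Lama3 (0.966), Plekha2 (0.964), Castor2 (0.961), Vsig1 (0.959) and Gm16933 (0.954). Lama3 encodes a laminin chain of epithelial basement membranes. Its mean was 100 CPM in untreated, 49.6 CPM in Rspo1-negative and 51.7 CPM in Rspo1-positive cells.

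Padi1 and Padi2 had r = 0.897 with each other, Padi2 being the 45th most alike to Padi1. Padi4 had r = -0.04 with Padi1 and -0.28 with Padi2. These correlations describe 9 libraries that share groups, passages and an animal.

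Cornified envelope genes, which serve the epidermal barrier in which Padi1 and Padi3 are best known, were examined next, and 7 of 15 were tested. In Rspo1-positive against untreated cells 2 of the 7 fell and 0 rose, where 2.13% of all genes were called lower. The median log2 fold change of the 7 was -0.88, against -0.01 over all genes. Ivl (involucrin), a scaffold protein of the envelope, had 58.7, 21.9 and 61.3 CPM in untreated cells at passages 5, 6 and 10. It had 17.6, 6.79 and 11.7 CPM in Rspo1-negative and 16.2, 5.13 and 12.2 CPM in Rspo1-positive cells, with no overlap between untreated and Rspo1 libraries. Its log2 fold change was -2.08 (SE 0.49, adjusted p = 0.0361) in Rspo1-positive and -1.97 (SE 0.49, adjusted p = 0.0184) in Rspo1-negative cells in edgeR.

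Sprr1a, a small proline-rich protein cross-linked into the envelope, had 341, 169 and 189 CPM in untreated cells at passages 5, 6 and 10. It had 126, 65.8 and 61.0 CPM in Rspo1-negative and 86.0, 78.1 and 43.1 CPM in Rspo1-positive cells, also without overlap. Its log2 fold change was -1.75 (SE 0.37, adjusted p = 0.0203) in Rspo1-positive and -1.46 (SE 0.36, adjusted p = 0.018) in Rspo1-negative cells in edgeR. Both Ivl and Sprr1a lost their Rspo1-positive calls without the untreated library of passage 5 or the Rspo1-positive library of passage 6 or 10, and Ivl also without the untreated library of passage 10, with adjusted p up to 0.132. A fit of the 6 libraries of that comparison alone also lost Ivl. Both lost their Rspo1-negative calls without the untreated library of passage 5 or the Rspo1-negative library of passage 6 or 10, with adjusted p up to 0.0813. With passage as a block, 4 of the 7 (Ivl, Lor, Sprr1a and Tgm5) fell and 2 (Blmh and Tgm1) rose in Rspo1-positive cells, where 6.77% of all genes were called lower and 6.44% higher in that fit. In Rspo1-negative cells Ivl, Lor and Sprr1a fell and Blmh and Tgm1 rose with the block, where 20.0% of all genes were called lower and 15.5% higher. Lor, Tgm5, Blmh and Tgm1 were named here after their values were seen.

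In Rspo1-negative against untreated cells 3 of the 7 cornified envelope genes fell and 0 rose (median -0.41 against -0.02 over all genes), where 13.9% of all genes were called lower. The third was Lor (loricrin), at -1.40 (adjusted p = 0.0454 in edgeR), which held in 2 of 9 fits that left out a library, the one without the untreated library of passage 6 and the one without the Rspo1-positive library of passage 10. Between the Rspo1 groups 0 of the 7 passed in edgeR or DESeq2, with 0 at an unadjusted p under 0.05. Of 9 epidermal markers 8 were listed, with a summed level of 29.7 to 72.8 CPM in untreated, 11.6 to 24.0 CPM in Rspo1-negative and 10.9 to 21.7 CPM in Rspo1-positive libraries. Ivl and Lor stand in both lists. The epidermal keratinocyte genes Trp63, Krt1, Krt5 and Krt14 had 0 to 2, 0 to 4, 4 to 29 and 3 to 17 counts per library, while Krt10 had 54 to 122 and Dsg3 15 to 67. The part of epidermal cells in the Padi1 values was not tested.

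With passage, Ivl did not take the course of Padi1. Of the 7 genes, 2 fell at passage 6 against passage 5 (background 1.33% lower), Ivl by 1.49 (SE 0.16, adjusted p = 0.00195) and Tgm1 by 1.06 (SE 0.16, adjusted p = 0.00744) on the log2 scale in edgeR. At passage 10 Ivl was -0.29 (SE 0.15, adjusted p = 0.243) from passage 5. Tgm1, a transglutaminase that cross-links the envelope, rose by 0.75 (SE 0.15, adjusted p = 0.0135) at passage 10, and Sprr1a fell by 0.96 (SE 0.18, adjusted p = 0.00973) in edgeR. The Tgm1 call at passage 6 was lost without the Rspo1-negative library of passage 5 (adjusted p = 0.0654). The Tgm1 rise at passage 10 was lost without any 1 of the passage 5 libraries or without the untreated or Rspo1-negative library of passage 10, and the Sprr1a call without the untreated or Rspo1-negative library of passage 5 or the Rspo1-positive library of passage 10.

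Factors reported to act on Padi promoters were the next list, of which 8 of 10 were tested. In Rspo1-positive against untreated cells 1 rose and 0 fell, where 3.07% of all genes were called higher, and the median was 0.27. The gene was Esr1, the estrogen receptor alpha, which has been reported to induce Padi genes in other tissues. Esr1 had 0.246, 0.301 and 1.04 CPM in untreated cells at passages 5, 6 and 10. It had 6.15, 8.06 and 7.88 CPM in Rspo1-negative and 7.07, 6.98 and 9.32 CPM in Rspo1-positive cells. The groups with and without Rspo1 did not overlap, and the log2 fold change was 3.85 (SE 0.45, adjusted p = 0.00131) in Rspo1-positive and 3.77 (SE 0.45, adjusted p = 0.00105) in Rspo1-negative cells in edgeR. These calls held under each of the 17 alternatives of each comparison.

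In Rspo1-negative against untreated cells 3 of the 8 factors fell and 1 rose (median -0.28). Over all genes, 13.9% were called lower there and 1361 of 17011 higher. Sp3, a GC box binding factor, had 44.7, 53.0 and 45.4 CPM in untreated and 21.3, 20.5 and 13.7 CPM in Rspo1-negative cells at passages 5, 6 and 10 (log2 fold change -1.36, adjusted p = 0.00135 in edgeR). It had 43.5, 39.7 and 49.6 CPM in Rspo1-positive cells, so that only the Rspo1-negative libraries were low. Between the Rspo1 groups Sp3 was higher in the positive cells (1.26, adjusted p = 0.00205 in edgeR), also when GC content and length were corrected for (0.67, adjusted p = 0.0189). Sp1 (-0.69, adjusted p = 0.0267) and Nfyb, a subunit of the CCAAT-binding NF-Y (-0.76, adjusted p = 0.0203), also fell in edgeR. Under that offset Sp1 was at -0.02 (adjusted p = 0.967) and Nfyb at -0.39 (adjusted p = 0.197), and neither passed. Sp1 was also lost without the Rspo1-negative library of passage 5 or 10 or the untreated library of passage 6 or 10, and Nfyb without the untreated library of passage 5 or the Rspo1-negative library of passage 6 or 10. In Rspo1-positive against Rspo1-negative cells 3 rose and 0 fell, with a median of 0.58, where 14.6% of all genes were called higher. Besides Sp3 these were Sp1 (0.60, adjusted p = 0.0413) and Nfyb (0.69, adjusted p = 0.0275 in edgeR). Neither passed under the offset, at an adjusted p of 0.801 for Sp1, whose sign turned (-0.09), and 0.31 for Nfyb. Sp1 was lost in 5 of 9 fits that left out a library, those without a Rspo1-positive library or without the Rspo1-negative library of passage 5 or 10. Nfyb was lost in 4 of 9, without the Rspo1-positive library of passage 5 or 6 or the Rspo1-negative library of passage 6 or 10.

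**Figure D5:**
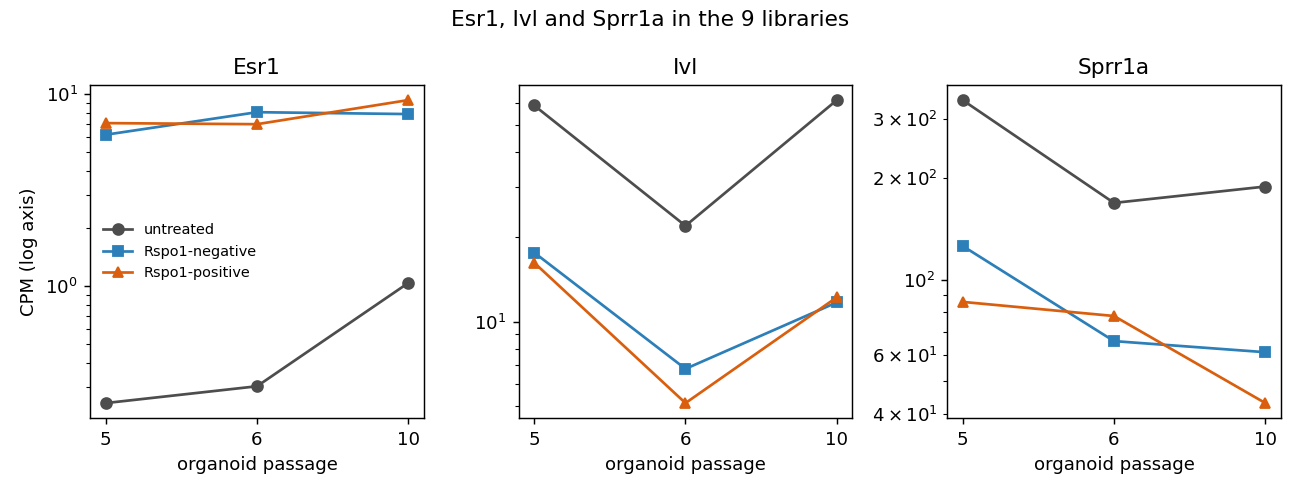
CPM (log axes with a scale of their own in each panel) of Esr1, Ivl and Sprr1a against organoid passage, 1 point per library, with lines joining the libraries of a group. Esr1 lies at 6.15 to 9.32 CPM in the 6 Rspo1 libraries and at 0.246 to 1.04 CPM in untreated ones, and Ivl and Sprr1a have the opposite order of groups.

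Enzymes of free citrulline and arginine, which do not act on protein-bound arginine, were represented by 8 tested genes of 11. In Rspo1-positive against Rspo1-negative cells 3 fell and 0 rose (median -0.54 against 0.03 over all genes), where 9.78% of all genes were called lower. Ass1, which joins citrulline and aspartate, had 134, 72.9 and 125 CPM in Rspo1-negative cells at passages 5, 6 and 10. It had 49.9, 24.7 and 37.9 CPM in Rspo1-positive cells, without overlap, and 106, 70.2 and 77.1 CPM in untreated cells. The log2 fold change between the Rspo1 groups was -1.56 (SE 0.29, adjusted p = 0.00555 in edgeR), and it passed in all 17 alternatives of that comparison. Asl (-0.67, adjusted p = 0.00846) and Ddah2 (-0.74, adjusted p = 0.0491 in edgeR), named after their values were seen, were the other genes called, and with the offset neither passed (adjusted p = 0.202 and 0.53). Ddah2 was also lost in 6 of 9 fits that left out a library, those without the untreated library of passage 5 or 6, the Rspo1-positive library of passage 5 or 6 or the Rspo1-negative library of passage 6 or 10. At passage 10 against passage 5, 2 of the 8 rose and 2 fell, where 4.57% of all genes were called higher and 4.50% lower. Nos2, the inducible nitric oxide synthase, which releases citrulline from arginine, fell by 2.20 (SE 0.26, adjusted p = 0.00108) and the arginase Arg2 by 1.16 (SE 0.15, adjusted p = 0.00135) on the log2 scale in edgeR. Nos2 lay at 0.932 to 2.5 CPM in the passage 10 libraries and at 5.32 to 14.9 CPM in the others. The 2 that rose were Ddah2 (0.68, adjusted p = 0.0074) and the arginase Arg1 (0.61, adjusted p = 0.0486 in edgeR). Arg1 was lost in 8 of 9 fits that left out a library, all but the one without the untreated library of passage 6, and by DESeq2, and Ddah2 was lost without the Rspo1-negative library of passage 5 or 10.

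Arginine methyltransferases modify the same residue in proteins, and 8 of 9 were tested. In Rspo1-positive against untreated cells 0 of the 8 passed in edgeR, where 5.21% of all genes were called. There 2 had an unadjusted p under 0.05 and DESeq2 called Prmt1 (median 0.17). With the passage block Prmt1 rose and Prmt2 fell in that comparison, where 6.44% of all genes were called higher and 6.77% lower. In Rspo1-negative against untreated cells 2 rose and 0 fell (median 0.15), where 1361 of 17011 genes were called higher and 21.9% in either direction. They were Prmt1, the main asymmetric methyltransferase (0.61, SE 0.14, adjusted p = 0.0116 in edgeR), and Prmt5, the main symmetric one (0.59, SE 0.18, adjusted p = 0.0372 in edgeR). Under the offset for GC content and length neither passed, at 0.23 (adjusted p = 0.254) and 0.28 (adjusted p = 0.362). Prmt5 held in 2 of 9 fits that left out a library, those without the untreated library of passage 6 or the Rspo1-positive library of passage 10. Between the Rspo1 groups Prmt2 fell (-0.54, adjusted p = 0.0459 in edgeR) and 0 of the 8 rose, where 9.78% of all genes were called lower. That call was lost with the offset (adjusted p = 0.727) and in 7 of 9 fits that left out a library, all but those without the untreated library of passage 6 or 10. With the passage block Prmt2, Prmt5 and Prmt7 fell, where 17.4% of all genes were called lower. At passage 10 against passage 5 Prmt3 fell (-0.51, adjusted p = 0.0216 in edgeR) and 0 rose, where 4.50% of all genes were called lower, and Prmt3 was lost in 6 of 9 such fits, those without any library of passage 5 or 10. The edgeR counts of 1 in 8 without the block are near the background. At passage 10 against passage 5, DESeq2 called 3 of the 8, Prmt3, Prmt5 and Prmt7, all lower. In edgeR 4 of the 8 had an unadjusted p under 0.05 there, all lower.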

How the data were processed

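RNA from sorted cells was read as single-end 75 bp reads from 100 ng of total RNA, per the labels' protocols. The deposited tables give raw counts and FPKM per gene for 32137 Ensembl genes, per the file headers. The submitters' processing notes name Trimmomatic 0.35, FastQC 0.11.2, STAR 2.5.1b, featureCounts, DESeq2 and GRCm38, without roles. The strand setting and annotation are not given in the sources used here. The authors also deposited a table per comparison with log2 fold changes, a score (the test statistic), p-values and adjusted p-values.

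Counts were analysed with edgeR 4.0.16 in R 4.3.3. filterByExpr (minimum count 10, minimum total 15) kept 17011 genes, with TMM scaling. A fit of the 9 libraries was made on group, and another on group and passage for passage contrasts. Quasi-likelihood tests were adjusted by Benjamini-Hochberg over all tested genes, with a threshold of 0.05. The SE is the log2 fold change divided by the square root of F. CPM use TMM-scaled totals, and within-passage log2 differences a prior count of 2. FPKM entered no test. DESeq2 1.42.0, other scalings, no filter, a GC and length offset (splines of 5 df), left-out libraries, 6 libraries only, the passage block and, added after seeing the data, Gm13032 counts summed with Padi1, were alternatives. The fitting steps were tested on simulated data.

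Replicate numbers are passages, per the labels. After removal of group means, same-passage libraries correlated at 0.123 to 0.573 (9 pairs) and libraries of different passages at -0.476 to 0.0826 (18 pairs), so the numbers pair the libraries. Total counts of 23423979 to 37351448 per library limit precision most for genes with low counts, above all near the floor of 3 counts, and such limits cover counting error only.

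The members, gene lists and markers were chosen with earlier results of these data known. Named are the members, Gm13032, Padi6, genes in and 5 to each side of the cluster, the 5 genes most like Padi1 and Padi2, and, per list, at most 4 called genes by size of change and the gene of highest level. Gene positions, exon overlaps and GC content came from the GENCODE annotation of GRCm38, and promoters from RefSeq (4 of 4 members matched). Genes of a list without a row in the files were not analysed here, and protein sequences were not used here.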

Additional observations from a re-analysis of the deposited data

How the results depend on the processing

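Of 248 values of the Padi genes under alternatives, 239 moved by less than the spread between replicates or, in the tested contrast, kept their direction and side of the threshold. Against untreated cells that spread is the SD of log2 CPM within groups. It holds the differences between passages, so it is wide for Padi1 and Padi2 and this count is no close check. For example, the Padi2 values in Rspo1-positive cells, from -2.53 to -1.09, all counted as kept. The other 9 values follow. Padi1 in Rspo1-positive against Rspo1-negative cells passed in edgeR with the replicate block (log2 fold change -1.05, adjusted p = 0.00137), with block and offset for GC content and length together (-0.73, 0.0102) and without a filter on low counts (-0.95, 0.0379), and its adjusted p was 0.00137 to 0.691 over all alternatives. The block changed no call of Padi2 or Padi4. Leaving out 1 library moved that contrast from -1.73 to -0.44 for Padi1, from -1.15 to 0.53 for Padi2 and from -0.52 to 0.09 for Padi4. The sign turned for Padi2 without the Rspo1-negative library of passage 5 (0.53) or the Rspo1-positive library of passage 10 (0.17). It turned for Padi4 without the Rspo1-negative library of passage 10 (0.09), with the offset (0.14) and with block and offset (0.18), and for Sp1 with the offset (-0.09) and with block and offset (-0.08). The fits that left out a library did not hold passage as a block, so those without a Rspo1 library leave 1 passage unpaired. Within passages 5, 6 and 10, Padi2 was lower in the Rspo1-positive library, with log2 differences of -0.24, -0.26 and -0.54. The causes of the turned signs were not tested. Padi2 at passage 10 against passage 5 ranged from -2.89 to -2.59, the first without the Rspo1-negative library of passage 10.

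Genes called in Rspo1-positive against Rspo1-negative cells went from 4141 to 1451 with the offset and 6624 with the block. In Rspo1-negative against untreated cells they went from 3724 to 1629 with the offset, 6039 with the block and 2299 with 6 libraries. In Rspo1-positive against untreated cells they went from 886 to 1446 without a filter, 1506 by DESeq2, 2247 with the block and 2677 with block and offset. Between passages 10 and 5 they went from 1543 to 2784 without a filter, and between passages 6 and 5 from 423 to 1193 without a filter and 851 by DESeq2. The share of calls that were higher went to 49.5% in Rspo1-negative cells under upper-quartile scaling, and to 48.7% with the block and 46.7% with block and offset in Rspo1-positive cells, both against untreated. Padi3 had too few counts for a fold under any setting.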

Other observations

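Reported citrullination substrates were tested for 18 of 23 genes. In Rspo1-positive against untreated cells 1 rose and 0 fell, with a median log2 fold change of -0.02, where 3.07% of all genes were called higher. The gene, E2f1, lies outside the naming rule and was chosen after its values were seen: its mean was 9.0 ± 1.01 CPM in untreated and 18.9 ± 3.18 CPM in Rspo1-positive cells (SD, n = 3 each), a log2 change of 1.07 (SE 0.18, adjusted p = 0.0061 in edgeR). E2f1 encodes a transcription factor of the cell cycle. With the passage block Mbp also fell, where 6.77% of all genes were called lower. In Rspo1-negative against untreated cells 3 rose and 3 fell (median -0.29), where 1361 of 17011 genes were called higher and 13.9% lower. In Rspo1-positive against Rspo1-negative cells 4 rose and 2 fell (median -0.12), where 14.6% of all genes were called higher and 9.78% lower. Ep300, a histone acetyltransferase, was at 87.0 ± 25.0 CPM in Rspo1-negative, 202 ± 42.9 CPM in untreated and 178 ± 10.9 CPM in Rspo1-positive cells (SD, n = 3 each). Its log2 fold changes were -1.22 (SE 0.21, adjusted p = 0.00385) for Rspo1-negative over untreated cells and, for Rspo1-positive cells over Rspo1-negative ones, 1.03 (SE 0.21, adjusted p = 0.00788) in edgeR. Both calls held in all 17 alternatives of each comparison. Serpinc1 was at -1.35 (SE 0.39, adjusted p = 0.0326) and 1.59 (SE 0.39, adjusted p = 0.0162) in these comparisons in edgeR. Rps2, the substrate of highest level, was at 0.83 (SE 0.16, adjusted p = 0.00681) and -0.71 (SE 0.16, adjusted p = 0.0124) in edgeR. Neither gene passed in either comparison under the offset for GC content and length. Serpinc1 was also lost in 5 and 2 of 9 fits that left out a library, and Rps2 in 0 and 1 of 9.

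At passage 10 against passage 5, where Padi2 was lowest, 2 of the 18 substrates rose and 1 fell, where 4.57% of all genes were called higher and 4.50% lower. The gene that fell, named after its values were seen, was Fn1 (fibronectin), at -0.90 (adjusted p = 0.0119 in edgeR), lost without the untreated or Rspo1-positive library of passage 5 or of passage 10. Fga, the fibrinogen alpha chain, had 9, 22 and 21 counts at passage 5 and 185, 127 and 103 counts at passage 10 in untreated, Rspo1-negative and Rspo1-positive libraries. Its log2 fold change was 3.17 (SE 0.52, adjusted p = 0.00483 in edgeR), and it passed without each library in turn. Fgb, the beta chain, had 1, 4 and 8 counts at passage 5 and 161, 52 and 15 at passage 10 (3.95, SE 0.87, adjusted p = 0.0195 in edgeR), and was lost without the untreated or Rspo1-negative library of passage 5 or of passage 10. Fibrinogen is a secreted product of hepatocytes. Of 6 hepatocyte markers all 6 were listed, with a summed level of 164 to 440 CPM in untreated, 268 to 545 CPM in Rspo1-negative and 204 to 312 CPM in Rspo1-positive libraries, and Cyp3a11 and Cps1 had at most 1 count in any library. Alb had 116 to 503 counts and Ttr 5183 to 20079. In untreated, Rspo1-negative and Rspo1-positive libraries Ttr went from 12149, 20079 and 12413 counts at passage 5 to 5183, 6035 and 6960 at passage 10, lower in each group while the Fga and Fgb counts were higher. Their part in the Fga and Fgb values was not tested.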
